A study of Ambystoma mexicanum with 17 samples.

Results

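Posterior blastemas of the axolotl forelimb were compared with uninjured forelimb tissue. The comparison used 4 posterior blastema libraries and 3 uninjured libraries, 7 of the 17 in the series, chosen by their titles alone. Polyadenylated RNA was sequenced in every library. The posterior blastemas came from d/d (white) axolotls in which a nerve had been deviated to a wound, and were collected 10 days post-injury with the wound epithelium left in place. The design text describes them as grown from purely posterior tissue, and their treatment is labelled as none. The uninjured libraries came from forelimb tissue of the same d/d genotype, also with no treatment. Neither group received the ERK pathway inhibitor U0126, which was given at 25 uM in another group of the series. The treatment protocol names Holtfreter's solution and DMSO for untreated samples without saying which group had which. Age, the tissue layers in the uninjured samples, and whether each library is a separate animal are not stated. P-values therefore measure the spread between libraries, which was estimated over all 4 groups of the series and not from the 7 libraries alone.

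A blastema is a mound of undifferentiated cells, mostly from connective tissue, that forms under a wound epithelium after limb injury and rebuilds the missing limb. Its growth needs nerve-derived signals. In the limb field, the posterior margin carries HAND2 and the secreted signal SHH, while the anterior side carries ALX and LHX factors and FGF signals; an outgrowth normally needs both sides. The samples were bulk tissue, so a gene can be lower because its cells were fewer or because each cell held less of its RNA, and these cannot be told apart here.

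The 7 libraries held between 34181446 and 47485303 counts in genes. Levels are given as CPM, the counts per 1000000 of the library total after TMM scaling, with posterior libraries in the order of replicates 1 to 4. A value with ± after a gene's name is its log2 fold change with SE, and a gene is said to pass where edgeR's adjusted p was under 0.05. The library labelled uninjured replicate 1 stood apart from the other uninjured libraries. The matrix glycoprotein gene TNC was at 1329 CPM in it, inside the posterior range of 1143 to 1857 CPM, and at 71.6 and 78.4 CPM in uninjured replicates 2 and 3. Skeletal muscle genes held 0.118% of its counts and 1.61% and 3.15% of those in uninjured replicates 2 and 3, and its share of mitosis genes, 0.179%, was the highest of the 7 libraries. Blastema mesenchyme genes held 0.127% of its counts, which lay between the other uninjured libraries (0.0540% and 0.0857%) and the lowest posterior library (0.241%). In the fit that did not use this library, 1238 genes rose and 697 fell. The library itself lay nearer to the posterior mean than to the mean of the other uninjured libraries for 962 of the rises (77.7%) and 395 of the falls (56.7%). It lay inside the posterior range for 431 of the rises (34.8%) and 192 of the falls (27.5%). These genes were chosen for differing from uninjured replicates 2 and 3, which favours a held-out library lying nearer to the posterior mean. Uninjured replicates 2 and 3 were not held out in the same way, so these shares have no reference. Calls and fold changes are therefore given with all libraries and without uninjured replicate 1. That library was left out because its expression values resembled a blastema. P-values from the fit without it do not allow for this choice, which favours larger differences between the groups.

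The limb factor TBX3, the retinoic acid receptor RARA, the protease CTSK and the immediate early factor JUNB rose in posterior blastemas in both fits. The epidermal genes PPL and JUP, the tyrosine-degrading enzyme TAT and the clock repressor CRY1 fell in both. Further genes of limb patterning, mesenchyme, wound matrix and ribosome assembly rose in the fit without uninjured replicate 1 alone. With all libraries, edgeR's quasi-likelihood test called 408 of 19398 genes at an adjusted p under 0.05, which is 2.1%. Of these, 168 rose (0.866% of all genes tested) and 240 fell (1.24%), and 227 changed by at least 2-fold. Without uninjured replicate 1 the same test called 1935 of 19825 genes (9.76%), 1238 higher (6.24%) and 697 lower (3.52%). Both fits called 382 genes, which is 93.6% of the calls with all libraries and 19.7% of those without replicate 1, and all 382 had the same direction in both. Scaling by total counts alone, where the median log2 fold change of all genes was 0.14, gave a split with all libraries of 173 higher and 100 lower. Without replicate 1 total counts gave 1496 higher and 320 lower, with the median at 0.19.

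These counts rested on few libraries and on the spread in the other groups. With only the 2 compared groups in the fit, edgeR called 0 genes, with 3288 at an unadjusted p under 0.05. The same fit without uninjured replicate 1 called 1411. With all libraries, edgeR called 0 genes after leaving out posterior replicate 1, posterior replicate 2 or uninjured replicate 3, with 3151, 3412 and 3685 genes at an unadjusted p under 0.05. It called 4 without uninjured replicate 2 (KIFC3, FAM168A and 2 without a symbol), 114 without posterior replicate 3 and 376 without posterior replicate 4. From the 1935 calls without uninjured replicate 1, further leaving out uninjured replicate 3 left 5 calls, CTHRC1, CECR2, TMCC3 and 2 genes without a symbol. These survivors were singled out after their values were seen. Leaving out uninjured replicate 2 instead left 762, and leaving out posterior replicates 1, 2, 3 or 4 left 460, 644, 1230 and 2263. None of the genes described below, and no member of the 46 gene lists, was called in edgeR once both uninjured replicates 1 and 3 were left out. DESeq2 called 2064 genes with all libraries and 3682 without uninjured replicate 1, and of the 143 genes named here it called 88 and 124, against 37 and 117 in edgeR.

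**Figure D1:**
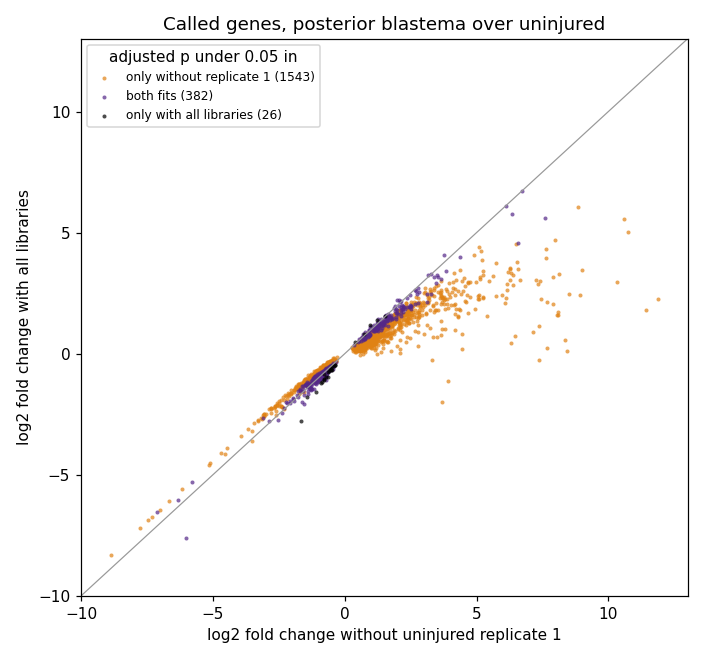
Log2 fold change of posterior blastema over uninjured tissue with all libraries (vertical axis) and without uninjured replicate 1 (horizontal axis), for the 1951 genes tested in both fits and called in either; the line marks equal values. Of the 1233 rises without replicate 1 that both fits tested, 1201 were smaller with all libraries, and 583 of the 692 falls were smaller. The fold was smaller with all libraries for 1536 of 1543 genes called only without replicate 1. It was smaller for 248 of 382 called in both fits and for 0 of 26 called only with all libraries. These shares depend on which fit called the genes and are a description.

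Genes of posterior limb identity were higher in posterior blastemas than in uninjured tissue, and for several of them anterior and posterior blastemas overlapped. TBX3, a T-box transcription factor of the limb margins, passed in both fits. TBX3 was at 58.1, 31.9, 25.0 and 16.6 CPM in posterior libraries, against 11.7, 6.20 and 10.4 CPM in uninjured replicates 1, 2 and 3. All posterior libraries lay above all uninjured libraries (log2 fold change 1.80 ± 0.39 (SE), adjusted p = 0.0345 with all libraries; log2 fold change 1.98 ± 0.47 (SE), adjusted p = 0.0238 without uninjured replicate 1). HOXD13 was at 17.7, 7.32, 6.90 and 4.86 CPM in posterior libraries, against 2.31, 0.395 and 0.600 CPM in uninjured replicates 1, 2 and 3. HOXD11 was at 49.6, 36.03, 26.5 and 14.3 CPM in posterior libraries, against 8.91, 1.06 and 1.83 CPM in uninjured replicates 1, 2 and 3. These late HOXD genes, which pattern the posterior and distal limb, did not overlap between the groups, with uninjured replicate 1 the highest uninjured library for both. HOXD13 had a log2 fold change of 3.05 ± 0.96 (SE), adjusted p = 0.0867, with all libraries and a log2 fold change of 4.20 ± 1.15 (SE), adjusted p = 0.0374, without uninjured replicate 1. HOXD11 passed only in the fit without that library (log2 fold change 4.45 ± 1.23 (SE), adjusted p = 0.0387, and 3.005 ± 1.03 with all libraries).

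SALL4 was at 57.4, 40.0, 28.97 and 21.9 CPM in posterior libraries, against 19.2, 1.85 and 0.327 CPM in uninjured replicates 1, 2 and 3. SALL4, a zinc finger factor of the early limb bud, rose without uninjured replicate 1 (log2 fold change 5.07 ± 0.81 (SE), adjusted p = 0.00894) and had a log2 fold change of 2.37 ± 0.90 (SE), adjusted p = 0.142, with all libraries. HAND2 was at 30.6, 21.6, 17.4 and 7.15 CPM in posterior libraries, against 4.91, 0.643 and 1.28 CPM in uninjured replicates 1, 2 and 3. The groups did not overlap for HAND2, the factor upstream of SHH, yet it passed in neither fit in edgeR (log2 fold change 3.07 ± 1.15 (SE), adjusted p = 0.138, with all libraries; log2 fold change 4.32 ± 1.42 (SE), adjusted p = 0.0664, without uninjured replicate 1). DESeq2 called it in both (adjusted p = 0.0235 and 0.00142). Reads of SHH itself were few. The posterior libraries held 342, 76, 137 and 5 SHH reads, against 0, 2 and 39 in uninjured replicates 1, 2 and 3. Most of the uninjured reads were thus in replicate 3, which lay above posterior replicate 4, and SHH passed in neither fit, in edgeR or DESeq2 (edgeR adjusted p = 0.298 with all libraries and adjusted p = 0.364 without uninjured replicate 1).

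Of the 12 posterior patterning genes tested, 1 rose with all libraries, where 0.866% of all genes rose. Without uninjured replicate 1, 8 rose, where 6.24% of all genes did. All 12 had a positive log2 fold change in each fit. Of the 12, 10 lay higher in all posterior libraries than in all uninjured libraries, where 8.94% of all genes did. The median was 2.79 with all libraries and 4.24 without replicate 1, where the medians of all genes tested were −0.019 and 0.0061. The 8 included the T-box factor TBX2 (2.39 ± 0.66, and 1.77 ± 0.58 with all libraries), HOXD9 (3.54 ± 0.84, and 2.57 ± 0.73 with all libraries) and HOXD10 (4.41 ± 1.32, and 2.47 ± 1.10 with all libraries). HOXD3, an early gene of the same cluster, rose in both fits. HOXD3 was at 8.64, 6.42, 4.82 and 3.88 CPM in posterior libraries, against 1.30, 1.21 and 1.55 CPM in uninjured replicates 1, 2 and 3. Among 15 genes of the hedgehog pathway, 0 passed edgeR's test with all libraries. Without uninjured replicate 1, 1 rose, near the 6.24% of all genes that rose. It was the transcriptional effector GLI2 (log2 fold change 2.702 ± 0.62 (SE), adjusted p = 0.0229, and 1.53 ± 0.62 with all libraries). PTCH1 was at 55.5, 27.4, 24.6 and 5.58 CPM in posterior libraries, against 4.12, 2.32 and 8.24 CPM in uninjured replicates 1, 2 and 3. The hedgehog receptor and target PTCH1 overlapped between the groups because posterior replicate 4 lay below uninjured replicate 3, and it did not pass in edgeR (log2 fold change 2.53 ± 0.74 (SE), adjusted p = 0.0734 with all libraries, and 2.42 ± 0.90 without replicate 1). DESeq2 called PTCH1 in both fits (adjusted p = 0.00539 and 0.0163), and edgeR did without posterior replicate 4. GLI1 was at 6.399, 4.52, 4.28 and 2.704 CPM in posterior libraries, against 0.963, 0.890 and 3.22 CPM in uninjured replicates 1, 2 and 3. That target, which also overlapped, passed in neither fit (log2 fold change 1.40 ± 0.65 (SE), adjusted p = 0.231 with all libraries, and 1.12 ± 0.74 without replicate 1).

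Genes of both the upper and the lower limb were higher on average. SHOX, a homeobox gene of the proximal limb skeleton, was at 96.2, 78.6, 79.0 and 85.7 CPM in posterior libraries, against 25.97, 13.4 and 20.4 CPM in uninjured replicates 1, 2 and 3. It rose without uninjured replicate 1 (log2 fold change 2.33 ± 0.67 (SE), adjusted p = 0.0433, and 2.09 ± 0.55 with all libraries), and its adjusted p was 0.0575 with all libraries. Its relative SHOX2 and the forelimb factor TBX5 did not overlap between the groups and passed in neither fit in edgeR (SHOX2 1.99 ± 0.64 with all libraries and 2.18 ± 0.78 without replicate 1, TBX5 2.08 ± 0.61 and 2.21 ± 0.74). DESeq2 called both genes in both fits, with adjusted p-values of 0.00681 to 0.0151 with all libraries and 0.0087 to 0.0148 without replicate 1. MEIS1 and MEIS2, which mark the upper arm, did not pass (MEIS1 −0.41 ± 0.23 with all libraries and −0.55 ± 0.25 without replicate 1, MEIS2 −0.17 ± 0.26 and 0.094 ± 0.28). Of 12 proximal genes tested, 0 passed in edgeR with all libraries and 2 rose without replicate 1, where 6.24% of all genes rose (medians 1.98 and 2.08). Besides SHOX, the other rise was TBX4, known as a hindlimb factor, with 84, 46, 40 and 85 reads in posterior libraries, against 16, 0 and 0 in uninjured replicates 1, 2 and 3 (adjusted p = 0.0404 without replicate 1 and adjusted p = 0.197 with all libraries). Of 12 distal genes, 0 passed with all libraries and 6 rose without replicate 1, where 6.24% of all genes rose (medians 0.82 and 1.89). The 6 held HOXD11 and HOXD13, which are in the posterior list as well, and SP9 (1.84 ± 0.45, and 0.90 ± 0.48 with all libraries), a factor of the limb's apical epithelium. HOXA13, the marker of the hand, was at 4.72, 2.69, 3.20 and 1.79 CPM in posterior libraries, against 0.530, 0.717 and 0.900 CPM in uninjured replicates 1, 2 and 3. HOXA13 (2.11 ± 0.87 with all libraries and 1.94 ± 1.04 without replicate 1) and HOXA11 (2.38 ± 1.03 and 3.18 ± 1.26), a gene of the forearm, passed in neither fit in edgeR, although their groups did not overlap. DESeq2 called HOXA11 without replicate 1 (adjusted p = 0.0182).

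Anterior genes were mixed. Among 11 tested, the median log2 fold change was 0.10 with all libraries and 0.26 without uninjured replicate 1. In edgeR 0 rose in either fit. The homeobox gene IRX3 was the 1 that fell without replicate 1, where 3.52% of all genes fell (log2 fold change −1.38 ± 0.39 (SE), adjusted p = 0.0404, and −1.09 ± 0.38 with all libraries). LHX9, an anterior LIM homeobox gene, was at 0.147, 0.408, 0.187 and 0.109 CPM in posterior libraries, against 0.747, 0.173 and 0.0273 CPM in uninjured replicates 1, 2 and 3. Posterior and uninjured libraries overlapped at these low levels, while the 5 anterior blastemas held 11.5 to 25.0 CPM. LHX9 was the 1 gene of those named here that passed between posterior and anterior blastemas (log2 fold change −6.31 ± 0.87, adjusted p = 0.049997), a test that called 0.00516% of all genes. Over the alternatives its adjusted p ran from 0.0127 to 0.243, and it did not pass when any 1 posterior replicate was left out, without uninjured replicate 2, with total counts, with no filter or with the replicate block. ALX4, another anterior factor, was at 7.68, 4.22, 5.36 and 6.61 CPM in posterior libraries, against 3.16, 3.02 and 4.64 CPM in uninjured replicates 1, 2 and 3. Its anterior blastemas held 10.1 to 25.9 CPM. The anterior blastemas held 7.99 to 11.7 CPM of TBX3, 0.931 to 4.15 CPM of HAND2, 0.703 to 1.90 CPM of HOXD13 and 0.0920 to 0.779 CPM of HOXA13, all below the posterior libraries. They held 5.87 to 12.1 CPM of HOXD11, also below the posterior libraries. The share of all genes with such a separation of anterior from posterior libraries was not computed, so these separations are a description. Anterior and posterior blastemas overlapped for SALL4 (19.5 to 42.4 CPM in anterior blastemas), HOXD10 (4.82 to 15.5 CPM), HOXD9 (4.16 to 9.74 CPM) and TBX2 (2.34 to 6.35 CPM). Posterior minus anterior log2 differences were 1.74 ± 0.33 for TBX3, 3.01 ± 0.78 for HOXD13, 3.35 ± 0.76 for HOXA13, 0.25 ± 0.72 for SALL4, −0.12 ± 0.88 for HOXD10 and 0.33 ± 0.58 for HOXD9 (SE), and none of these passed over all genes.

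**Figure D2:**
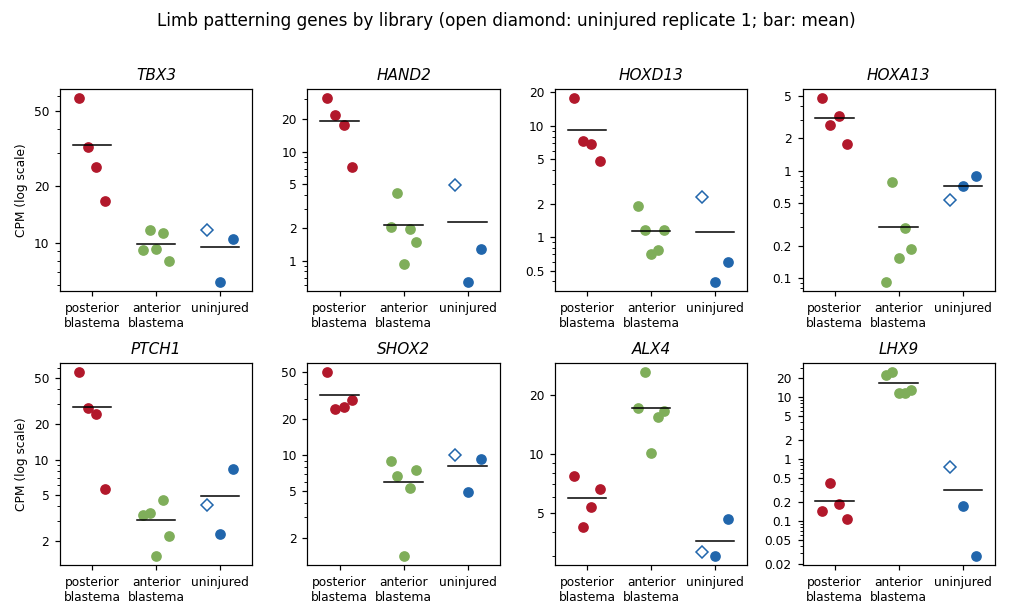
CPM on log axes of 8 limb patterning genes in posterior blastemas (n = 4), anterior blastemas (n = 5) and uninjured tissue (n = 3); each point is a library, the bar is the mean, and the open diamond is uninjured replicate 1. TBX3, HAND2, HOXD13, HOXA13 and SHOX2 sat higher in all posterior libraries than in all uninjured libraries, while LHX9 was at 0.109 to 0.408 CPM in posterior libraries.

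Regulators of blastema mesenchyme were higher, with most calls made only once uninjured replicate 1 was left out. PRRX1 was at 35.2, 21.2, 16.9 and 10.8 CPM in posterior libraries, against 6.91, 1.29 and 2.02 CPM in uninjured replicates 1, 2 and 3. PRRX2 was at 249, 130.2, 102 and 109.8 CPM in posterior libraries, against 40.3, 7.98 and 28.1 CPM in uninjured replicates 1, 2 and 3. These homeobox genes mark limb mesenchyme, and for both the posterior libraries lay above all uninjured libraries, of which replicate 1 was the highest. PRRX1 rose without replicate 1 (log2 fold change 3.67 ± 0.98 (SE), adjusted p = 0.0347, and 2.62 ± 0.83 with all libraries) and PRRX2 did too (log2 fold change 3.03 ± 0.87 (SE), adjusted p = 0.044, and 2.54 ± 0.72 with all libraries), with adjusted p-values of 0.0893 and 0.0684 when all libraries were used. SOX11 (4.17 ± 0.89, and 2.44 ± 0.84 with all libraries) and SOX4 (1.93 ± 0.39, and 1.34 ± 0.39 with all libraries), transcription factors of progenitor cells, and the secreted glycoprotein gene FSTL1 (1.85 ± 0.45, and 1.54 ± 0.39 with all libraries) rose without that library as well. LMO4, a LIM-domain cofactor on the same list, fell in both fits (15.1, 13.5, 16.04 and 10.8 CPM in posterior libraries, against 26.1, 23.5 and 36.3 CPM in uninjured replicates 1, 2 and 3; log2 fold change −1.04 ± 0.22 (SE), adjusted p = 0.0325 with all libraries, and −1.11 ± 0.25 without replicate 1). Among the 20 genes tested, 0 rose and 1 fell with all libraries, 8 rose and 1 fell without replicate 1, where 6.24% of all genes rose and 3.52% fell, and the medians were 1.35 and 1.98. TWIST1 did not overlap and passed in neither fit in edgeR (2.43 ± 0.74 with all libraries and 2.78 ± 0.90 without replicate 1), while DESeq2 called it in both (adjusted p = 0.00736 and 0.00405). KAZALD1, a secreted protein linked to axolotl limb regeneration, was at 7.70, 3.18, 2.78 and 1.504 CPM in posterior libraries, against 0.0241, 0.321 and 1.01 CPM in uninjured replicates 1, 2 and 3. It passed in neither fit in edgeR (adjusted p = 0.125 with all libraries and adjusted p = 0.15 without replicate 1), and DESeq2 called it with all libraries (adjusted p = 0.0258). MSX1 was low, with 45, 23, 13 and 0 reads in posterior libraries, against 48, 7 and 0 in uninjured replicates 1, 2 and 3.

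Several secreted factors were higher in every posterior library than in uninjured replicates 2 and 3, a separation that 20.4% of all genes showed. MDK was at 1351, 1528, 1092 and 1503 CPM in posterior libraries, against 677, 122 and 63.4 CPM in uninjured replicates 1, 2 and 3. MDK encodes midkine, a heparin-binding growth factor, and rose without uninjured replicate 1 (log2 fold change 3.88 ± 0.64 (SE), adjusted p = 0.00918, and 2.25 ± 0.70 with all libraries). IL11 was at 82.2, 102, 71.1 and 17.8 CPM in posterior libraries, against 49.4, 0.371 and 0.191 CPM in uninjured replicates 1, 2 and 3. This cytokine of the interleukin 6 family rose without replicate 1 (log2 fold change 7.90 ± 1.94 (SE), adjusted p = 0.0274), while replicate 1 itself lay inside the posterior range. With all libraries IL11 did not pass (log2 fold change 2.03 ± 1.55 (SE), adjusted p = 0.479). LEP, the hormone leptin, had 821, 579, 280 and 179 reads in posterior libraries, against 178, 2 and 3 in uninjured replicates 1, 2 and 3 (adjusted p = 0.0281 without replicate 1 and adjusted p = 0.251 with all libraries). The related cytokine CLCF1 (4.49 ± 1.01, and 2.60 ± 0.91 with all libraries) and the growth factor HGF (1.80 ± 0.42, and 1.27 ± 0.40 with all libraries) rose in the same fit, and the KIT receptor ligand KITLG fell (−2.13 ± 0.47, and −1.68 ± 0.53 with all libraries). Of 23 such factors tested without replicate 1, 5 rose and 1 fell, where 6.24% of all genes rose and 3.52% fell. In that fit 14 of the 23 had a positive log2 fold change and the median was 0.31, so the list was mixed. With all libraries 0 of 22 passed in edgeR, 13 had a positive log2 fold change and the median was 0.55. Ligands outside that list passed in both fits. AREG, a ligand of the EGF receptor, was at 18.9, 29.9, 15.9 and 52.1 CPM in posterior libraries, against 11.9, 5.31 and 5.02 CPM in uninjured replicates 1, 2 and 3 (log2 fold change 1.97 ± 0.47 (SE), adjusted p = 0.0441 with all libraries, and 2.498 ± 0.53 without replicate 1). ARTN, a neurotrophic ligand of the GDNF family, was at 6.57, 9.14, 4.77 and 5.95 CPM in posterior libraries, against 1.42, 1.24 and 1.77 CPM in uninjured replicates 1, 2 and 3 (log2 fold change 2.16 ± 0.41 (SE), adjusted p = 0.0247 with all libraries, and 2.13 ± 0.49 without replicate 1).

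The largest rises without uninjured replicate 1 were not in the chosen lists alone. CYP27B1, the enzyme that makes active vitamin D, was at 439, 302, 246 and 235 CPM in posterior libraries, against 91.8, 0.939 and 1.25 CPM in uninjured replicates 1, 2 and 3. Uninjured replicate 1 lay below every posterior library but far above the other uninjured libraries (log2 fold change 8.12 ± 1.65 (SE), adjusted p = 0.0166, without replicate 1; 3.28 ± 1.47, adjusted p = 0.214 with all libraries). CYP24A1, which breaks active vitamin D down, was at 19.97, 8.63, 8.37 and 4.99 CPM in posterior libraries, against 1.08, 0.568 and 0 CPM in uninjured replicates 1, 2 and 3 (adjusted p = 0.0399 without replicate 1 and adjusted p = 0.0626 with all libraries). SHD, an SH2-domain adaptor gene, was at 83.4, 57.5, 39.7 and 38.7 CPM in posterior libraries, against 33.9, 0.272 and 0.355 CPM in uninjured replicates 1, 2 and 3. ODAM, a gene of tooth-associated epithelia in mammals, had 844, 350, 451 and 193 reads in posterior libraries, against 269, 0 and 0 in uninjured replicates 1, 2 and 3. Both rose without replicate 1 (SHD adjusted p = 0.0155, ODAM adjusted p = 0.0183), and neither passed with all libraries (SHD adjusted p = 0.352, ODAM adjusted p = 0.391). These 4 genes were picked for their large fold changes and for posterior libraries that all exceeded uninjured replicates 2 and 3, so that separation is a description.

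Matrix of the healing wound and the enzymes that remodel it were higher in posterior blastemas. CTSK was at 615, 481, 359 and 768 CPM in posterior libraries, against 219.8, 132 and 108 CPM in uninjured replicates 1, 2 and 3. CTSK, a collagen-degrading cathepsin, rose in both fits (log2 fold change 1.86 ± 0.38 (SE), adjusted p = 0.0293 with all libraries; log2 fold change 2.21 ± 0.43 (SE), adjusted p = 0.0141 without uninjured replicate 1). The gelatinase MMP2 (1.68 ± 0.41, and 1.95 ± 0.48 without replicate 1) and the aggrecan-cleaving protease ADAMTS9 (1.44 ± 0.27, and 1.36 ± 0.32 without replicate 1) rose with all libraries too. Those 3 were the calls among 29 remodelling genes tested with all libraries, against a background of 0.866%, and 11 of 29 rose without uninjured replicate 1, where 6.24% of all genes rose (medians 0.73 and 1.28). ADAM8 was at 169, 163, 149 and 208 CPM in posterior libraries, against 97.5, 20.3 and 7.07 CPM in uninjured replicates 1, 2 and 3. MMP9 was at 53.4, 80.9, 43.2 and 243 CPM in posterior libraries, against 37.2, 24.8 and 9.08 CPM in uninjured replicates 1, 2 and 3. MMP11 was at 153, 119.7, 114 and 261 CPM in posterior libraries, against 83.0, 13.8 and 15.6 CPM in uninjured replicates 1, 2 and 3. These proteases, which are tied to migrating cells and wound tissue, rose without replicate 1 (ADAM8 3.65 ± 0.56, MMP9 2.63 ± 0.69, MMP11 3.46 ± 0.71; with all libraries ADAM8 2.05 ± 0.65, MMP9 2.15 ± 0.58, MMP11 2.11 ± 0.70), as did the membrane-bound collagenase MMP14 (2.46 ± 0.52, and 1.65 ± 0.51 with all libraries). MMP9 was highest in posterior replicate 4.

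TNC was at 1857, 1477, 1143 and 1372 CPM in posterior libraries, against 1329, 71.6 and 78.4 CPM in uninjured replicates 1, 2 and 3. TNC rose without uninjured replicate 1 (log2 fold change 4.29 ± 0.73 (SE), adjusted p = 0.0103) and not with it (log2 fold change 1.57 ± 0.87 (SE), adjusted p = 0.315). TGFBI was at 795, 769, 699 and 773 CPM in posterior libraries, against 548, 121 and 76.2 CPM in uninjured replicates 1, 2 and 3. FN1 was at 1796, 1966, 1912 and 2607 CPM in posterior libraries, against 1493, 461 and 331 CPM in uninjured replicates 1, 2 and 3. For these adhesive matrix proteins of wounds, replicate 1 lay below every posterior library and above the other uninjured libraries (TGFBI 2.94 ± 0.50 and FN1 2.39 ± 0.55 without it, TGFBI 1.61 ± 0.58 and FN1 1.44 ± 0.54 with it). The matricellular gene THBS2 rose without replicate 1 (2.60 ± 0.42, and 1.72 ± 0.46 with all libraries). Of 22 wound matrix genes tested, 0 passed edgeR's test with all libraries and 9 rose without replicate 1, where 6.24% of all genes rose (medians 1.46 and 1.82). POSTN, another wound matrix gene, was abundant in both groups, at 2426, 2264, 1684 and 2363 CPM in posterior libraries, against 1235, 540.3 and 1675 CPM in uninjured replicates 1, 2 and 3, and passed in neither fit (adjusted p = 0.241 with all libraries and adjusted p = 0.228 without replicate 1).

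Genes of mature connective tissue matrix were mostly higher, and most did not pass. Of 26 tested, 18 had a positive log2 fold change with all libraries and 17 without uninjured replicate 1. In each fit 13 had all posterior libraries above all uninjured libraries, against 8.94% and 20.4% of all genes. The list held 2.49% to 3.38% of counts in posterior libraries, against 1.34% to 1.95% in uninjured libraries. With all libraries 1 rose, the microfibril gene MFAP2 (1.40 ± 0.33, and 1.73 ± 0.36 without replicate 1), where 0.866% of all genes rose. Without uninjured replicate 1, 2 rose and 1 fell, where 6.24% of all genes rose and 3.52% fell. The gene that fell was COL14A1, a collagen of mature fibrils, at 15.9, 13.9, 9.45 and 16.9 CPM in posterior libraries, against 3.78, 78.0 and 125 CPM in uninjured replicates 1, 2 and 3. Uninjured replicate 1 lay below all posterior libraries for it (log2 fold change −2.86 ± 0.83 (SE), adjusted p = 0.0453 without replicate 1; adjusted p = 0.174 with all libraries). COL12A1, a related collagen of growing tissue, rose without replicate 1 (2.47 ± 0.67, and 1.47 ± 0.63 with all libraries). Of 17 basement membrane genes, 0 passed in edgeR with all libraries and 4 rose without replicate 1, where 6.24% of all genes rose. They were led by the embryonic laminin chain LAMA1 (3.17 ± 0.65, and 2.08 ± 0.63 with all libraries). Of 23 cartilage and bone genes, 0 passed in edgeR with all libraries, and 12 had a positive log2 fold change (median 0.16). Without replicate 1, 3 rose and 1 fell, where 6.24% of all genes rose and 3.52% fell. In that fit 12 were negative and the median was −0.19, or 0.057 with total-count scaling. The rises were the cartilage collagen genes COL2A1 (3.70 ± 0.83, and 2.31 ± 0.77 with all libraries) and COL11A1 (2.03 ± 0.43, and 1.55 ± 0.40 with all libraries) and the bone endopeptidase gene PHEX (3.22 ± 0.87, and 2.54 ± 0.73 with all libraries). The gene that fell was SOX6 (−1.30 ± 0.33, and −0.98 ± 0.35 with all libraries), a transcription factor of cartilage, and SOX9, which directs cartilage fate, was at −0.62 without replicate 1 and did not pass. COL2A1 was at 128, 122, 96.9 and 74.8 CPM in posterior libraries, against 47.5, 5.59 and 10.6 CPM in uninjured replicates 1, 2 and 3. Secreted or matrix-bound genes that passed with all libraries included LTBP1 (1.75 ± 0.35, and 1.91 ± 0.42 without replicate 1), which holds latent TGF-beta in the matrix, CCDC80 (1.94 ± 0.45, and 2.44 ± 0.50 without replicate 1) and the growth factor CLEC11A (1.93 ± 0.47, and 2.26 ± 0.55 without replicate 1).

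**Figure D3:**
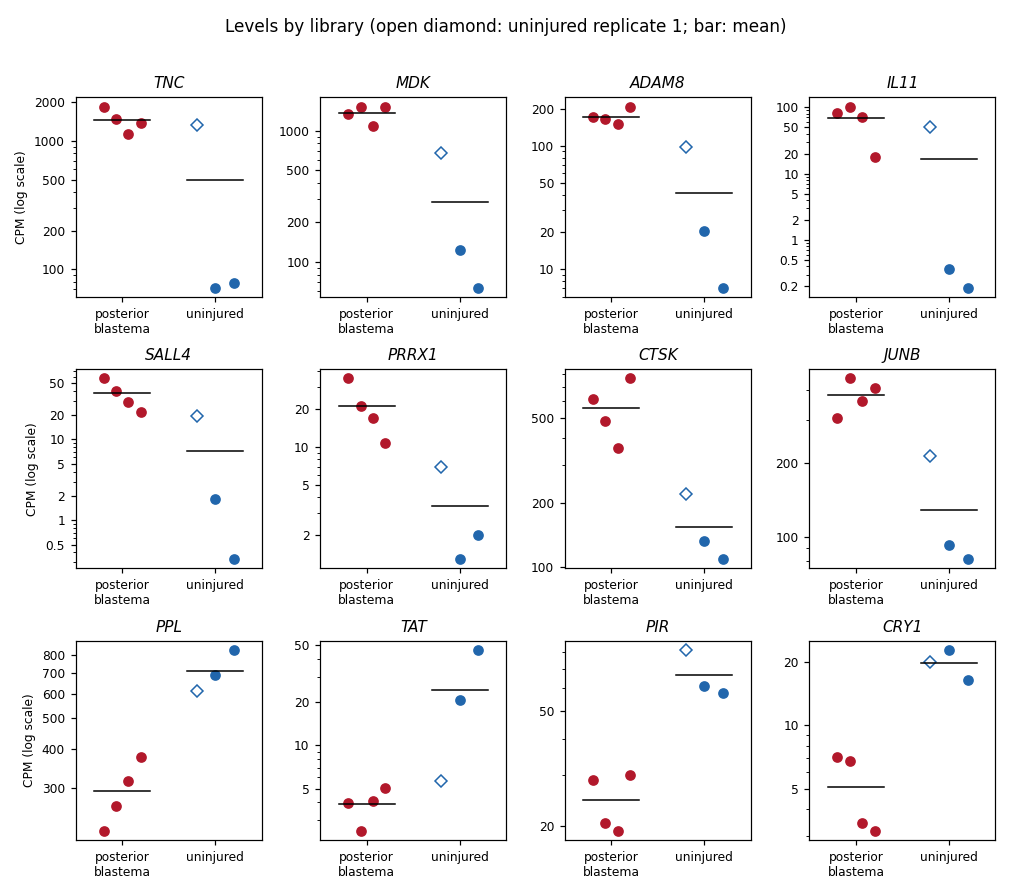
CPM on log axes of 12 genes in posterior blastemas (n = 4) and uninjured tissue (n = 3); each point is a library, the bar is the mean, and the open diamond is uninjured replicate 1. For TNC that library, at 1329 CPM, sat among the posterior libraries, whereas for PPL, PIR and CRY1 it sat with the other uninjured libraries.

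Among signalling genes, RARA, DUSP7, JUNB and FZD2 rose in both fits. Retinoic acid sets upper against lower limb identity, and CYP26 enzymes break it down. RARA was at 104, 71.6, 57.2 and 42.3 CPM in posterior libraries, against 29.2, 18.6 and 25.2 CPM in uninjured replicates 1, 2 and 3. This retinoic acid receptor rose in both fits (log2 fold change 1.499 ± 0.33 (SE), adjusted p = 0.0374 with all libraries, and 1.65 ± 0.40 without replicate 1). The retinoic acid binding protein CRABP2, at 1719, 1275, 1021 and 816 CPM in posterior libraries, against 762, 204 and 182 CPM in uninjured replicates 1, 2 and 3, rose without uninjured replicate 1 (log2 fold change 2.64 ± 0.44 (SE), adjusted p = 0.00918, and 1.66 ± 0.49 with all libraries), as did RDH10 (0.87 ± 0.22, and 0.70 ± 0.20 with all libraries), which makes the precursor retinal. CYP26B1 was at 303, 164, 129 and 39.7 CPM in posterior libraries, against 599.8, 459.6 and 676 CPM in uninjured replicates 1, 2 and 3. CYP26A1 was at 12, 16.4, 3.48 and 0.174 CPM in posterior libraries, against 75.8, 80.1 and 13.5 CPM in uninjured replicates 1, 2 and 3. CYP26B1 did not overlap and both were lower on average, yet neither passed in edgeR (CYP26B1 adjusted p = 0.0834 and CYP26A1 adjusted p = 0.121 with all libraries, CYP26B1 adjusted p = 0.081 and CYP26A1 adjusted p = 0.137 without replicate 1). DESeq2 called both with all libraries, with adjusted p-values of 0.0154 to 0.0279. Of 18 genes of the retinoic acid list, 1 rose with all libraries, where 0.866% of all genes rose (median −0.28). Without replicate 1, 3 rose, where 6.24% of all genes did (median −0.26).

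DUSP7, a phosphatase that switches ERK off, was at 56.1, 50.3, 46.3 and 57.1 CPM in posterior libraries, against 31.3, 32.2 and 32.2 CPM in uninjured replicates 1, 2 and 3 and rose in both fits (log2 fold change 0.72 ± 0.17 (SE), adjusted p = 0.0447 with all libraries, and 0.70 ± 0.20 without replicate 1). JUNB, an immediate early factor of the AP-1 family, was at 306, 446, 358 and 408 CPM in posterior libraries, against 213, 92.3 and 80.9 CPM in uninjured replicates 1, 2 and 3 and rose in both fits as well (log2 fold change 1.56 ± 0.38 (SE), adjusted p = 0.0473 with all libraries; log2 fold change 2.13 ± 0.38 (SE), adjusted p = 0.0113 without uninjured replicate 1). Without that library the ERK target ETV4 (1.80 ± 0.45, and 1.15 ± 0.44 with all libraries), the ephrin receptor EPHA2 (2.13 ± 0.42, and 1.24 ± 0.46 with all libraries) and the FGF pathway inhibitor IL17RD (2.32 ± 0.69, and 2.07 ± 0.57 with all libraries) rose too. Of 19 ERK feedback genes, 1 rose with all libraries, where 0.866% of all genes rose. Without replicate 1, 5 rose, where 6.24% of all genes did. A positive log2 fold change was found for 18 of 19 in each fit (medians 1.06 with all libraries and 0.84 without replicate 1). The ephrin receptor EPHA7, outside that list, was at 40.7, 24.0, 21.7 and 17.1 CPM in posterior libraries, against 5.80, 2.40 and 4.91 CPM in uninjured replicates 1, 2 and 3 and rose in both fits (log2 fold change 2.57 ± 0.58 (SE), adjusted p = 0.0392 with all libraries, and 2.83 ± 0.71 without replicate 1). FGF genes gave 0 calls in edgeR in either fit, among 17 tested with all libraries and 18 without replicate 1. FGF8, the ligand of the anterior blastema in the axolotl, had 14, 41, 46 and 3 reads in posterior libraries, against 3, 9 and 7 in uninjured replicates 1, 2 and 3. FGF10, a mesenchymal ligand, was at 7.45, 6.42, 6.24 and 4.01 CPM in posterior libraries, against 2.26, 2.15 and 5.67 CPM in uninjured replicates 1, 2 and 3 (adjusted p = 0.468 with all libraries and adjusted p = 0.597 without replicate 1).

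WNT genes were called about as often as genes in general. The receptor FZD2, at 86.3, 76.2, 58.6 and 56.4 CPM in posterior libraries, against 34.7, 25.2 and 33.6 CPM in uninjured replicates 1, 2 and 3, was the 1 call of 38 WNT genes with all libraries (log2 fold change 1.15 ± 0.26 (SE), adjusted p = 0.0396). Without replicate 1, 3 of 38 rose and 2 fell, near the shares of all genes, 6.24% and 3.52%. Besides FZD2, the receptor ROR2 (3.04 ± 0.55, and 1.998 ± 0.56 with all libraries) and the ligand WNT5B rose. WNT5B, named after its value was seen, had a log2 fold change of 2.96 without replicate 1 (adjusted p = 0.0481) and 1.94 with all libraries. In the same fit the ligands WNT10B (−2.05 ± 0.54, and −1.67 ± 0.54 with all libraries) and WNT7B (−1.28 ± 0.35, and −1.12 ± 0.32 with all libraries) fell. Of 31 BMP and TGF-beta genes, 1 rose with all libraries, LTBP1 as above, where 0.866% of all genes rose. Without replicate 1, 4 of 31 rose, where 6.24% of all genes rose, among them the activin subunit INHBA (3.94 ± 1.15, and 1.88 ± 1.01 with all libraries) and the inhibitory SMADs SMAD6 (1.91 ± 0.52, and 1.36 ± 0.47 with all libraries) and SMAD7 (1.78 ± 0.50, and 1.18 ± 0.46 with all libraries). Among 12 NOTCH genes 0 passed edgeR's test with all libraries. The receptor NOTCH1 was the 1 that fell without replicate 1, where 3.52% of all genes fell (−1.15 ± 0.29, and −0.92 ± 0.29 with all libraries).

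Ribosome assembly and nucleotide synthesis genes, and a few of division, were called only where uninjured replicate 1 was left out, and that library was at or above the lowest posterior library for each rise named here. POLR1A was at 24.4, 19.6, 21.3 and 20.5 CPM in posterior libraries, against 25.1, 12.9 and 7.99 CPM in uninjured replicates 1, 2 and 3. POLR1A and POLR1B, the large subunits of RNA polymerase I, rose without it (POLR1A 1.04 ± 0.19, POLR1B 0.88 ± 0.17; with all libraries POLR1A 0.48 ± 0.26, POLR1B 0.38 ± 0.24), as did the ribosome assembly factor BOP1 (0.67 ± 0.14, and 0.34 ± 0.18 with all libraries). Of 25 ribosome biogenesis genes 12 rose without replicate 1, where 6.24% of all genes rose, and 0 passed edgeR's test with all libraries (medians 0.50 and 0.22). CAD was at 127, 114, 87.5 and 85.3 CPM in posterior libraries, against 106, 47.2 and 37.3 CPM in uninjured replicates 1, 2 and 3. CAD, the enzyme that starts pyrimidine synthesis, rose without replicate 1 (log2 fold change 1.29 ± 0.21 (SE), adjusted p = 0.00894, and 0.71 ± 0.28 with all libraries), together with the purine enzyme GART (0.66 ± 0.13, and 0.32 ± 0.18 with all libraries) and the CTP synthase CTPS1 (0.91 ± 0.22, and 0.62 ± 0.22 with all libraries), while the guanine nucleotide enzyme IMPDH2 fell (−0.53 ± 0.14, and −0.36 ± 0.15 with all libraries). In that list 6 of 22 rose and 1 fell without replicate 1, where 6.24% of all genes rose and 3.52% fell. With all libraries 0 of them passed in edgeR.

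TTK was at 27.02, 26.9, 26.7 and 17.4 CPM in posterior libraries, against 34.03, 13.8 and 8.57 CPM in uninjured replicates 1, 2 and 3. ECT2 was at 19.6, 19.5, 21.4 and 12.1 CPM in posterior libraries, against 25.5, 9.66 and 6.27 CPM in uninjured replicates 1, 2 and 3. Uninjured replicate 1 was the highest of the 7 libraries for both of these, a kinase of the spindle checkpoint and a regulator of cytokinesis, and posterior replicate 4 was the lowest posterior library. Of 30 mitosis genes, 3 rose without replicate 1, near the 6.24% of all genes that rose, namely TTK (1.13 ± 0.28, and 0.38 ± 0.35 with all libraries), ECT2 (1.19 ± 0.27, and 0.39 ± 0.35 with all libraries) and the condensin subunit NCAPH (0.91 ± 0.27, and 0.38 ± 0.30 with all libraries). All 30 had a positive log2 fold change in that fit (median 0.68), against 25 of 30 with all libraries (median 0.17), where 0 passed in edgeR. Of 32 DNA replication genes, 3 rose without replicate 1, also near that share, among them the helicase subunit MCM6 (0.81 ± 0.23, and 0.41 ± 0.25 with all libraries) and the helicase partner GINS2 (1.18 ± 0.34, and 0.69 ± 0.34 with all libraries), while 0 passed in edgeR with all libraries. Mitosis genes held 0.158%, 0.168%, 0.159% and 0.0950% of counts in posterior libraries, against 0.179%, 0.108% and 0.0649% in uninjured replicates 1, 2 and 3.

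Several genes of differentiated epidermis were lower, and most of their calls were made in both fits. PPL was at 218, 263, 315 and 375 CPM in posterior libraries, against 613, 689 and 830.2 CPM in uninjured replicates 1, 2 and 3. JUP was at 316, 347, 408 and 489 CPM in posterior libraries, against 919.8, 803 and 679.7 CPM in uninjured replicates 1, 2 and 3. GRHL1 was at 42.8, 44.1, 46.1 and 49.2 CPM in posterior libraries, against 103, 103 and 78.8 CPM in uninjured replicates 1, 2 and 3. All posterior libraries lay below all uninjured libraries, replicate 1 included, for these genes of the periplakin crosslinker, the junction protein plakoglobin and an epidermal transcription factor. They fell with all libraries (PPL log2 fold change −1.28 ± 0.24 (SE), adjusted p = 0.0219; JUP log2 fold change −1.04 ± 0.21 (SE), adjusted p = 0.0293; GRHL1 log2 fold change −1.06 ± 0.22 (SE), adjusted p = 0.0328) and without replicate 1 (PPL −1.37 ± 0.26, JUP −0.93 ± 0.23, GRHL1 −0.99 ± 0.25). The epithelial factor OVOL2 fell in both fits too (−0.96 ± 0.20, and −0.88 ± 0.23 without replicate 1). Of 22 genes on the list, 5 fell with all libraries, where 1.24% of all genes fell, and 6 fell without replicate 1, where 3.52% did; 0 rose in edgeR in either (medians −0.70 and −0.57). Of the 22, 11 lay lower in all posterior libraries than in all uninjured libraries, against 7.72% of all genes. The list held 0.334%, 0.373%, 0.411% and 0.515% of counts in posterior libraries, against 0.775%, 0.580% and 0.506% in uninjured replicates 1, 2 and 3. Posterior replicate 4 and uninjured replicate 3 overlapped in this share. The proportion of epidermis in the samples was not measured, and its part in these differences was not tested.

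Among the wound epithelium list, 0 of 20 genes passed edgeR's test with all libraries and 5 rose without uninjured replicate 1, where 6.24% of all genes rose. KRT18, a keratin of simple and wound epithelia, was at 276, 260.2, 222 and 204 CPM in posterior libraries, against 92.8, 36.9 and 74.9 CPM in uninjured replicates 1, 2 and 3 and rose without replicate 1 (log2 fold change 2.11 ± 0.61 (SE), adjusted p = 0.0455, and 1.82 ± 0.51 with all libraries), as did SP6 (1.37 ± 0.36, and 0.96 ± 0.34 with all libraries), a factor of the limb's epithelial ridge, and SP9. Of epithelial genes outside the lists, PROM2 (−1.71 ± 0.39, and −1.79 ± 0.44 without replicate 1) and BNIPL (−1.70 ± 0.33, and −1.55 ± 0.36 without replicate 1) fell in both fits. FOXN1, a factor of skin and thymus epithelium, was at 1.45, 1.66, 3.48 and 1.94 CPM in posterior libraries, against 9.54, 12.6 and 8.78 CPM in uninjured replicates 1, 2 and 3 and fell without replicate 1 (log2 fold change −2.32 ± 0.65 (SE), adjusted p = 0.0393; −2.27 ± 0.58, adjusted p = 0.0531 with all libraries).

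Some amino acid breakdown and transport genes fell in both fits. TAT was at 3.94, 2.53, 4.07 and 5.04 CPM in posterior libraries, against 5.68, 20.6 and 46.5 CPM in uninjured replicates 1, 2 and 3. TAT, the enzyme that breaks down tyrosine, did not overlap between the groups, although uninjured replicate 1 was close to the posterior libraries (log2 fold change −2.64 ± 0.60 (SE), adjusted p = 0.0392 with all libraries; log2 fold change −3.10 ± 0.53 (SE), adjusted p = 0.0101 without replicate 1). The transporters SLC38A4 (log2 fold change −1.54 ± 0.37 (SE), adjusted p = 0.0447 with all libraries, and −1.71 ± 0.40 without replicate 1) and SLC6A9 (log2 fold change −1.12 ± 0.18 (SE), adjusted p = 0.0199 with all libraries, and −1.03 ± 0.20 without replicate 1), the second of which carries glycine, also lay lower in all posterior libraries. Ornithine aminotransferase OAT fell without replicate 1 (−0.97 ± 0.22, and −0.81 ± 0.21 with all libraries). In all, 3 of 19 fell with all libraries, where 1.24% of all genes fell, and 4 of 19 without replicate 1, where 3.52% did. In edgeR 0 rose in either fit. The list as a whole had medians of −0.23 with all libraries and 0.065 without replicate 1. A positive log2 fold change was found for 7 of 19 and 11 of 19. Brakes on growth factor signalling gave calls in 1 fit. PIK3R1 (−1.36 ± 0.25, and −1.07 ± 0.28 with all libraries) and PIK3R2 (−1.19 ± 0.23, and −0.89 ± 0.27 with all libraries), regulatory subunits of phosphoinositide 3-kinase, and the EGF receptor inhibitor LRIG1 (−1.33 ± 0.29, and −0.95 ± 0.36 with all libraries) fell without replicate 1, 3 of 20 listed genes, where 3.52% of all genes fell, while 0 passed in edgeR with all libraries. Glucose genes were mixed without replicate 1, with the glucose transporter SLC2A1 up (2.67 ± 0.69, and 0.95 ± 0.72 with all libraries) and the glycolytic enzyme PGK1 down (−1.09 ± 0.26, and −0.72 ± 0.34 with all libraries). Of 21 tested, 2 rose and 1 fell, where 6.24% of all genes rose and 3.52% fell.

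The clock repressor CRY1 was the 1 circadian gene of 15 to pass with all libraries, where 1.24% of all genes fell. It was at 7.09, 6.80, 3.46 and 3.16 CPM in posterior libraries, against 19.9, 22.8 and 16.4 CPM in uninjured replicates 1, 2 and 3 (log2 fold change −1.94 ± 0.42 (SE), adjusted p = 0.0329 with all libraries, and −1.94 ± 0.47 without replicate 1). Without replicate 1 the clock gene PER3 and the clock output factor TEF (−0.58 ± 0.13, and −0.45 ± 0.14 with all libraries) fell as well, so that 3 of 15 fell, where 3.52% of all genes did. PER3 had 4, 0, 3 and 1 reads in posterior libraries, against 26, 8 and 33 in uninjured replicates 1, 2 and 3 (adjusted p = 0.0414 without replicate 1 and adjusted p = 0.052 with all libraries). The labels give no hour of collection, so a difference in hour was not tested. Other genes were also among the lowest with all libraries. MFAP3L was at 1.13, 0.735, 1.15 and 1.33 CPM in posterior libraries, against 8.96, 4.35 and 8.40 CPM in uninjured replicates 1, 2 and 3 (log2 fold change −2.73 ± 0.47 (SE), edgeR adjusted p = 0.0202 with all libraries, and −2.55 ± 0.52 without replicate 1). The orexin receptor gene HCRTR2 (−1.97 ± 0.32, and −2.08 ± 0.35 without replicate 1), the microtubule gene MAP2 (−2.08 ± 0.38, and −1.53 ± 0.36 without replicate 1), the phosphatase gene DUSP3 (−1.55 ± 0.31, and −1.39 ± 0.34 without replicate 1), KRT222 (−1.49 ± 0.26, and −1.71 ± 0.26 without replicate 1), ANKRD35 (−1.46 ± 0.21, and −1.58 ± 0.23 without replicate 1) and PIR (−1.44 ± 0.26, and −1.27 ± 0.28 without replicate 1), which encodes the iron-binding nuclear protein pirin, fell in both fits. They too were picked partly because their groups did not overlap.

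Markers of other cell types in the tissue moved with the comparison to differing degrees. Skeletal muscle genes had a negative log2 fold change in 30 of 30 members in each fit (medians −0.90 and −1.46), yet 0 passed in edgeR in either fit. They held 0.260%, 0.872%, 1.86% and 1.22% of counts in posterior libraries, against 0.118%, 1.61% and 3.15% in uninjured replicates 1, 2 and 3. CKM, muscle creatine kinase, was at 266, 1140, 2466 and 1460 CPM in posterior libraries, against 111, 2654 and 5454 CPM in uninjured replicates 1, 2 and 3. The libraries of both groups were thus spread widely, with uninjured replicate 1 the lowest of all. Muscle progenitor genes gave 0 calls in edgeR among 12. PAX7, the factor of muscle stem cells, was at 2.33, 2.37, 1.64 and 2.97 CPM in posterior libraries, against 0.795, 0.371 and 1.17 CPM in uninjured replicates 1, 2 and 3 (adjusted p = 0.433 with all libraries and adjusted p = 0.448 without replicate 1), and MYF5, a myogenic factor, overlapped between the groups. The part of muscle content in the other differences was not tested.

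Of 24 genes on the endothelial list, 2 rose in both fits, where 0.866% of all genes rose with all libraries and 6.24% without replicate 1. Of these 2, ANGPT1 encodes a ligand that acts on vessels, and its rise was not read as a measure of vessel cells. CLDN5, a tight junction gene of vessels, was at 31.3, 44.2, 27.4 and 26.9 CPM in posterior libraries, against 10.96, 3.88 and 2.84 CPM in uninjured replicates 1, 2 and 3 (log2 fold change 2.46 ± 0.59 (SE), adjusted p = 0.0441 with all libraries, and 3.27 ± 0.64 without replicate 1). ANGPT1, a ligand that steadies vessels, was at 12.9, 7.54, 7.81 and 4.40 CPM in posterior libraries, against 1.32, 0.914 and 1.47 CPM in uninjured replicates 1, 2 and 3 (log2 fold change 2.72 ± 0.63 (SE), adjusted p = 0.0411 with all libraries, and 2.77 ± 0.77 without replicate 1). The endothelial list as a whole had medians of −0.073 and −0.33, the first of which was 0.11 with total-count scaling. Against uninjured replicates 2 and 3, 4 of the 24 lay higher in all posterior libraries and 9 lay lower, where 20.4% and 18.7% of all genes did. Of 16 macrophage genes 0 passed in edgeR with all libraries and 3 rose without replicate 1, where 6.24% of all genes rose, the lipid carrier APOE (2.73 ± 0.60, and 1.36 ± 0.63 with all libraries), the lysosomal glycoprotein GPNMB (3.14 ± 0.69, and 1.17 ± 0.76 with all libraries) and the scavenger receptor MARCO (2.04 ± 0.61, and 1.29 ± 0.56 with all libraries). CSF1R, which defines the lineage, was at 66.4, 120.5, 68.7 and 67.7 CPM in posterior libraries, against 60.3, 78.1 and 45.6 CPM in uninjured replicates 1, 2 and 3 (adjusted p = 0.34 with all libraries and adjusted p = 0.363 without replicate 1). Macrophage genes held 0.182% to 0.343% of counts in posterior libraries, against 0.110% to 0.215% in uninjured libraries. The contractile gene TAGLN (2.15 ± 0.44, and 1.11 ± 0.49 with all libraries) was 1 of 2 rises among 12 smooth muscle and pericyte genes without replicate 1, where 6.24% of all genes rose. In that fit 6 of the 12 had a positive log2 fold change, and the median was −0.099, or 0.11 with total-count scaling. With all libraries the median was 0.32. Schwann cell genes, with SOX10 at 6.31, 13.5, 12.4 and 10.9 CPM in posterior libraries, against 2.96, 3.68 and 10.2 CPM in uninjured replicates 1, 2 and 3, gave 0 calls in edgeR among 16. The lists of granulocytes, lymphocytes, red blood cells, stress response and mitochondrially encoded genes also had 0 calls in edgeR in either fit. With all libraries, JUNB was the 1 call in edgeR among the 7 lists that follow. Without replicate 1, 2 rose and 0 fell of 7 adipocyte genes, 6 rose and 0 fell of 33 chromatin genes, 1 rose and 0 fell of 14 growth arrest genes and 1 rose and 0 fell of 13 pigment cell genes. Of all genes, 6.24% rose and 3.52% fell in that fit. LEP, named above, was 1 of the 2 adipocyte rises, and GPNMB was the pigment cell rise. In the same fit 2 rose and 0 fell of 7 tendon genes, 0 rose and 2 fell of 25 respiratory chain genes and 3 rose and 0 fell of 21 immediate early genes. With all libraries 0 of the 25 respiratory chain genes had a positive log2 fold change (median −0.31). Of them, 10 lay lower in all posterior libraries than in all uninjured libraries, where 7.72% of all genes did.

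**Figure D4:**
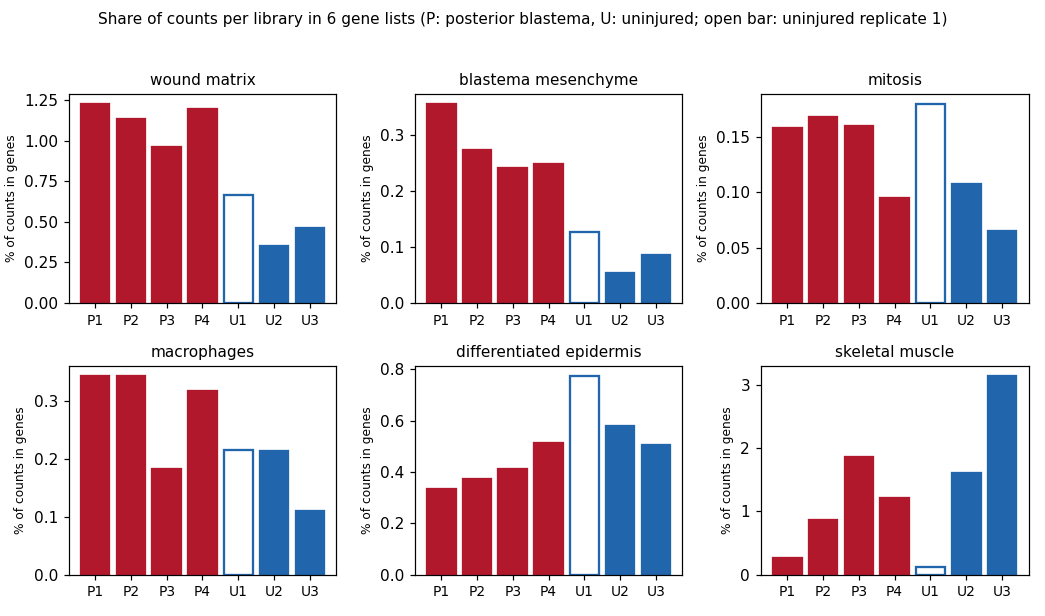
Share of the counts in genes, in percent, held by 6 gene lists in the 4 posterior blastema libraries (P1 to P4) and the 3 uninjured libraries (U1 to U3, U1 open). Wound matrix and blastema mesenchyme shares were higher in all posterior libraries than in all uninjured libraries, and skeletal muscle ran from 0.260% to 1.86% in posterior libraries, against 0.118% to 3.15% in uninjured libraries.

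**Figure D5:**
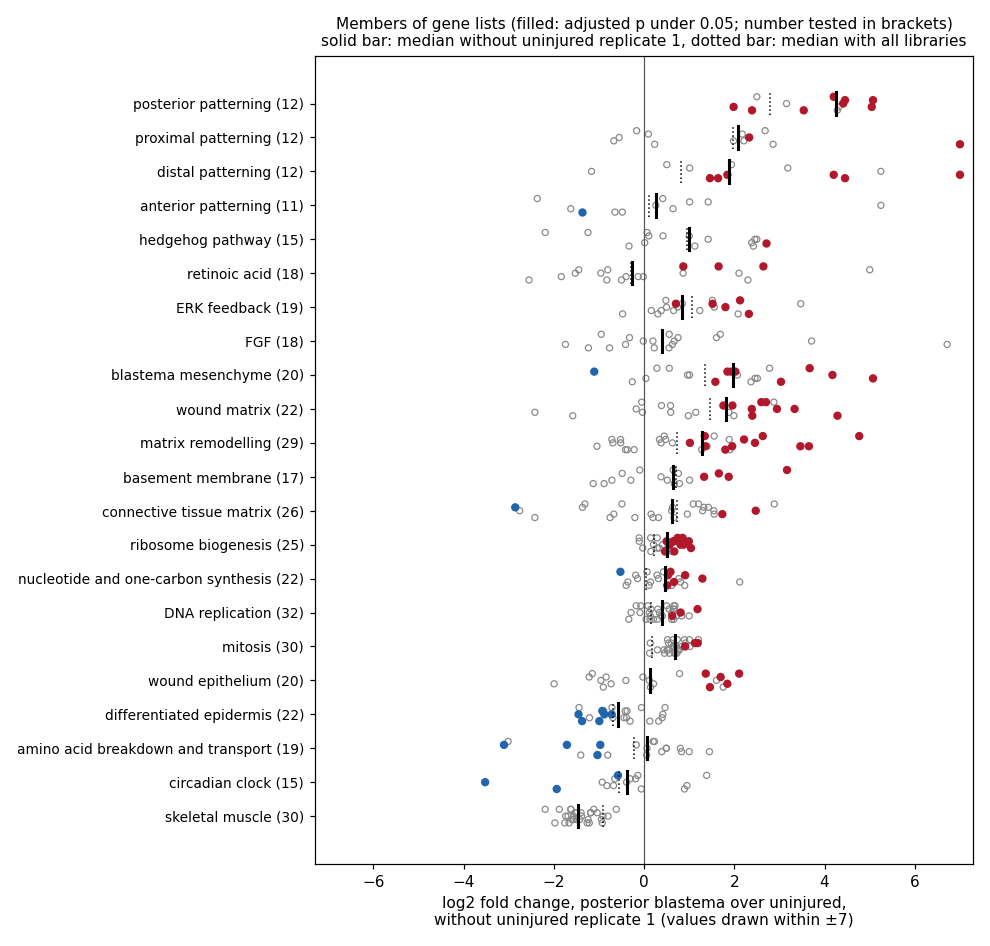
Log2 fold change of posterior blastema over uninjured tissue without uninjured replicate 1 for the members of 22 gene lists, 1 point a gene, filled where the adjusted p was under 0.05 (red higher, blue lower); values beyond ±7 are drawn at 7. Solid bars are list medians in that fit and dotted bars medians with all libraries, and the posterior patterning list had the highest median, 4.24, of the lists drawn.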

How the data were processed

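The submitters' processing notes name Trimmomatic 0.39, a read trimmer, and STAR 2.7.3a, an aligner. Which genome build and which gene annotation served is not given in the sources used here, and no coordinates are reported. The authors deposited raw counts per gene, not normalized. The unstranded column was used. The 2 stranded columns differed in total, by a ratio of 1.90 to 2.16; where genes overlap, or lie antisense to each other, their reads may be mixed. Rows of reads outside genes (14.2% to 16.4% of reads) were left out. Of 67180 gene IDs outside tRNA, 67156 matched a RefSeq table used for names.

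All 17 libraries (34181446 to 53856865 counts) were fitted in 1 model of 4 groups with edgeR 4.0.16 in R 4.3.3 (filterByExpr, TMM, robust quasi-likelihood F test, Benjamini-Hochberg adjustment, threshold 0.05), and again without uninjured replicate 1, which leaves that group 2 libraries. The SE is the one implied by the F statistic (log2 fold change over its square root). Members and gene lists were chosen with earlier results of these data known; 864 of 997 listed symbols were in the files. Named genes were the 15 highest and 15 lowest log2 fold changes in each fit (with a symbol, adjusted p under 0.05, at least 1 log2 CPM and no overlap), up to 4 genes of each list per fit, and limb genes set by name, of which a selection is printed. No replicates agreed within sampling noise (chi-square over its degrees of freedom 64.6 to 630.1). Tests were checked on simulated data. Of 100 genes changed 2-fold there, 40 were called with all libraries and 28 without uninjured replicate 1. Of 100 changed 4-fold, 82 and 74 were called. A gene that did not pass may therefore still have changed. Alternatives were RLE and total-count scaling, other filters, second-strand counts, the 2 groups alone, a replicate block, DESeq2 1.42.0, a test against a 2-fold minimum and leaving out libraries. Figures were drawn with matplotlib 3.10.9.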

Additional observations from a re-analysis of the deposited data

Results flagged for a closer look

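For 7 of 143 named genes, 1 posterior library stood far from the other 3, and chance alone gives about 1 such group in 20. CSF1R was at 120.5 CPM in posterior replicate 2, with the nearest other posterior library at 68.7 CPM. DUSP3 was at 19.4 CPM in posterior replicate 3, with the nearest other posterior library at 11.96 CPM. FGF9 was at 0.545 CPM in posterior replicate 4, with the nearest other posterior library at 2.87 CPM. KITLG was at 24.6 CPM in posterior replicate 3, with the nearest other posterior library at 12.5 CPM. PKHD1L1 was at 31.6 CPM in posterior replicate 3, with the nearest other posterior library at 4.12 CPM. RDH10 was at 18.7 CPM in posterior replicate 4, with the nearest other posterior library at 23.3 CPM. TTK was at 17.4 CPM in posterior replicate 4, with the nearest other posterior library at 26.7 CPM. PKHD1L1 was called with all libraries (log2 fold change 5.78 ± 1.33 (SE), adjusted p = 0.0405 in edgeR) although posterior replicate 2, at 0.163 CPM, lay below uninjured replicate 1, at 0.289 CPM. LHX9 was the named gene whose difference from uninjured tissue itself differed between posterior and anterior blastemas. The test of posterior against anterior blastemas gave a log2 difference of −6.31 ± 0.87 (SE), adjusted p = 0.049997 in edgeR, with all 4 posterior values under the lowest anterior value.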

How the results depend on the processing

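With all libraries, where 408 genes were called, RLE and total-count scaling, second-strand counts and the stricter filter kept the count within 1.5 times of this. The count was 265 without a filter, 45 with the replicate block, 2064 with DESeq2 and 3108 without uninjured replicate 1 and inhibitor replicate 5. In edgeR it was 0 with only the 2 groups in the fit (3288 at an unadjusted p under 0.05), 0 against a 2-fold minimum (751 unadjusted) and 0 to 1935 without single libraries. From 1935 without uninjured replicate 1, it was 996 with the replicate block, 4 against a 2-fold minimum, 3682 with DESeq2 and 5 to 2263 without a further library; the other alternatives stayed within 1.5 times. Why these counts differed was not tested. The fits with libraries left out or with the replicate block also held fewer libraries or degrees of freedom. Replicate numbers are shared by title only. Deviations of same-numbered posterior and uninjured libraries correlated at 0.26, 0.046 and 0.17 over genes. Posterior replicates 1 and 3 correlated best with their own numbers. Posterior replicate 2 was at 0.047 with uninjured replicate 1, nearly tied with its own number. The library names tie the uninjured libraries to anterior ones. Whether the numbers pair posterior and uninjured libraries cannot be told from so few values, and the main fits used no pairing. Between posterior and anterior blastemas, LHX9 was the 1 call among the named genes, and edgeR called 0 with total counts, without a filter and with the replicate block, and 0 to 1 without single libraries. The direction of 139 of 143 named genes held in every alternative with all libraries, and of 142 of 143 without uninjured replicate 1; none of the exceptions had been called. Their log2 fold changes were as follows. MEIS2 (−0.17 with all libraries) was at 0.10 without uninjured replicate 1 and inhibitor replicate 5 and −0.34 to 0.094 without single libraries. LHX9 (−0.61 with all libraries) was at 1.01 without uninjured replicate 1 and inhibitor replicate 5 and −1.11 to 1.01 without single libraries. MSX1 (0.071 with all libraries) was at −0.54 to 2.37 without single libraries. MYF5 (−0.34 with all libraries) was at −0.89 to 0.37 without single libraries. MEIS2 (0.094 without uninjured replicate 1) was at −0.086 to 0.29 without single libraries. Few reads of LHX9 and MSX1 were counted in posterior and uninjured libraries, and no difference between these groups was detectable at this depth and spread.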
